A study of Mus musculus with 18 samples.

Results

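Apolipoproteins are the proteins that carry lipid through the blood in lipoprotein particles, and 8 of their genes (Apob, Apoa1, Apoa2, Apoa4, Apoa5, Apoc2, Apoc3 and Apoe) were followed here together with Mttp, the gene of the transfer protein that loads lipid onto apolipoprotein B. The 9 genes were taken as a list of symbols and matched to Ensembl identifiers. All 9 were among the 28030 genes of the deposited table, and all 9 passed the filter on low counts that left 12477 genes for testing. Each was compared between the ends of the liver lobule and between feeding states.

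RNA was sequenced from hepatocytes of wild-type (WT) C57BL/6J male mice aged 12 weeks on normal chow (lab diet #5053), in 18 libraries that form 6 groups of 3. Hepatocytes labelled pericentral lie near the central vein, and those labelled periportal lie near the portal vein and hepatic artery. The labels name digitonin, a detergent that permeabilises cells, in the isolation of each zone. All mice had been trained for 3 days to a daily 16 h overnight fast, and on the test day received food and water with 20% sucrose for 4 h. The fed group was taken then, at clock hour 13, and the fasted groups 8 h later at clock hour 21 or 24 h later at clock hour 13. Fed and 24 h mice were thus taken at the same clock hour, while at 8 h the length of the fast and the time of day cannot be told apart. No label says whether replicates came from separate mice, or whether the zones of 1 replicate number came from the same liver, so p-values measure the spread between these preparations.

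Hepatocytes build very low density lipoprotein around a single molecule of apolipoprotein B, with the microsomal transfer protein supplying triglyceride as the chain enters the endoplasmic reticulum. Apolipoproteins A-I and A-II form the scaffold of high density lipoprotein, and apolipoprotein E is the ligand through which the liver takes particle remnants back. In plasma, apolipoprotein C-II activates lipoprotein lipase, C-III inhibits the clearance of triglyceride-rich particles and A-V favours it, while apolipoprotein A-IV is made in the gut and in the liver and travels with chylomicrons and high density lipoprotein.

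Levels are given in CPM, a gene's counts per 1000000 counts of the library, scaled between libraries by the trimmed mean of M-values (TMM). Total estimated counts ranged from 1.84e+07 to 2.64e+07 per library. TMM factors ran from 0.998 to 1.10 in pericentral and from 0.830 to 1.04 in periportal libraries. A lower factor gives a higher CPM for the same share of counts, so CPM and unscaled shares can differ between zones. Zones were checked by marker genes. The summed level of 4 pericentral markers (Cyp2e1, Cyp1a2, Oat and Glul) was 9305 to 18314 CPM in pericentral libraries and 420.0 to 2044 CPM in periportal ones, and that of 4 periportal markers (Cyp2f2, Hal, Gls2 and Sds) was 278 to 1793 CPM against 3134 to 5413 CPM. The second pericentral library at 24 h stood apart from the other pericentral ones in most of these markers. It had the lowest Glul (111 CPM), Oat (257 CPM) and Cyp1a2 (202 CPM) of the zone. Its Cyp2f2 (793 CPM), Hal (466 CPM), Gls2 (320 CPM) and Sds (215 CPM) were the highest. Its Cyp2e1, at 10266 CPM, was the median of the pericentral libraries. Results of the 9 genes that rest on it are given without it as well, and so are the listed genes named below whose calls it decided. Markers of other cells of the liver were low: all 5 endothelial markers summed to 2.63 to 9.29 CPM in pericentral and 3.43 to 25.8 CPM in periportal libraries, the 6 of Kupffer cells and leukocytes to 0.372 to 3.64 and 0.565 to 13.9 CPM, and the 5 of stellate cells and fibroblasts to 0.696 to 4.94 and 0.969 to 14.5 CPM. The 4 cholangiocyte markers summed to 13.9 to 27.7 CPM in pericentral and 21.2 to 33.7 CPM in periportal libraries. Epcam was at 0 in all 18 and Krt19 reached 0.506 CPM, while Krt7 stood at 11.1 to 20.2 CPM. Sox9 stood at 2.42 to 8.81 CPM in pericentral and 6.73 to 17.4 CPM in periportal libraries. The 3 red blood cell markers had larger sums, at 36.6 to 65.9 CPM in pericentral and 30.8 to 75.1 CPM in periportal libraries. Most of that was Alas2 (29.2 to 66.5 CPM), while Hba-a1 reached 9.79 CPM and Hbb-bs 21.6 CPM. The sums other than that of red blood cells tended to be higher in periportal libraries. The part of any of these cells in the zone differences was not tested. Throughout, fewer cells that express a gene and less RNA of it per cell cannot be told apart.

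By CPM, most of the apolipoprotein genes were among the most abundant of the genes tested. Together the 9 genes took 3.92% to 4.99% of the counts of a library, and Apoe alone took 1.86% to 2.59%. By mean CPM over the 18 libraries Apoe ranked 3 among the genes tested, Apob 11, Apoa1 25, Apoa2 30, Apoa5 75, Apoc3 119, Apoa4 192, Mttp 269 and Apoc2 1060. Long transcripts collect more reads, and these ranks take no account of length. The 9 genes were therefore also compared with each other per kilobase of the longest principal transcript. On that scale Apoe stood at 15457 CPM per kb, Apoa2 at 9653, Apoa1 at 5606 and Apoc3 at 1987, while Apoa5 (678), Apob (551), Apoa4 (337), Apoc2 (158) and Mttp (110) followed. Apob, whose transcript is 13934 bases long, thus moved from second to sixth place among the 9.

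Of the 9 genes, 4 lie in a cluster on chromosome 9 (Apoa1, Apoc3, Apoa4 and Apoa5, spanning 43.3 kb) and Apoc2 and Apoe lie in another on chromosome 7 with Apoc4 and Apoc1 (27.6 kb). Because neighbours in these clusters differed in their zone pattern, the sequence before the annotated start is shown for 5 of them, from the RefSeq promoter windows of build GRCm38.p6 (250 bases before and 50 after a start), cut at the first start that RefSeq or GENCODE annotates. The pair Apoa1 (chr9:46228380-46228579, plus strand) and Apoa4 (chr9:46240594-46240695, plus strand) is followed by Apoa5 (chr9:46268358-46268607, plus strand), and the pair Apoc2 (chr7:19677942-19678191, minus strand) and Apoe (chr7:19699189-19699438, minus strand) comes last. Each is written 5′ to 3′ along the gene's strand, and capitals mark matches, on either strand, to 4 motifs.
Apoa1: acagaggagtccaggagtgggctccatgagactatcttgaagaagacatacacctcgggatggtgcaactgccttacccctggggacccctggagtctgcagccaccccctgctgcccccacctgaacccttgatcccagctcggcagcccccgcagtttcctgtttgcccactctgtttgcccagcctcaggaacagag
Apoa4: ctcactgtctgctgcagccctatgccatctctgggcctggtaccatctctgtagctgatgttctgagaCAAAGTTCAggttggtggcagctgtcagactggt
Apoa5: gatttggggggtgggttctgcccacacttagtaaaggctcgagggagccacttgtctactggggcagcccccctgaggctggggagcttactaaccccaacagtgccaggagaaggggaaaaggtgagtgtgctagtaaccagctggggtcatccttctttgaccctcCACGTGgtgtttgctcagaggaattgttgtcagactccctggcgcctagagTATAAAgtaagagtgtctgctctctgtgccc
Apoc2: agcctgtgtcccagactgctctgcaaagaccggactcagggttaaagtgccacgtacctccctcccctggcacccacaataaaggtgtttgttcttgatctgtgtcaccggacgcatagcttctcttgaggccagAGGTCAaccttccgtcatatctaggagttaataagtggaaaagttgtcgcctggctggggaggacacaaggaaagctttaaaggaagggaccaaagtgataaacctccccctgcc
Apoe: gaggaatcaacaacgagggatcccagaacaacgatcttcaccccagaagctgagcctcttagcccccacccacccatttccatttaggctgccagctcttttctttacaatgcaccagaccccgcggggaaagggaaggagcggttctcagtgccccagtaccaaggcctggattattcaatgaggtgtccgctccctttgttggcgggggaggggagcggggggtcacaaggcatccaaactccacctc
The motif of the HNF4 type was spelled CAAAGNNCA. The half-site that nuclear receptors bind was spelled AGGTCA. The E-box searched was the palindrome CACGTG. The TATA box searched was spelled TATAAA. None of them overlapped another in the stretches shown.

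The Apoa4 stretch held the HNF4-type match CAAAGTTCA, starting at position -182 from the RefSeq start site. In Apoa5, CACGTG began at -82 and TATAAA at -31, and in Apoc2 an AGGTCA began at -115. The Apoc2 window held another AGGTCA at 42, after the start. The stretches of Apoa1 and Apoe, like their whole windows from the same start, held none of the 4 motifs as spelled. Among the promoter windows of all genes in the table, 32851 of the same length, CAAAGNNCA was found in 6.36%, AGGTCA in 16.3%, CACGTG in 7.15% and TATAAA in 13.6%. Windows were found for 8 of the 9 members. The Apob window, not shown, held an HNF4-type match (TGCCCTTTG as read on the gene's strand) at -103 and a TATAAA at -60. The window of another Apoe start held overlapping TATAAA matches at -100 and -96, and separate windows of Apoa2 held a TATAAA at -212 and an AGGTCA at -238, none of them shown. These matches are descriptions of letters and were set against no binding data.

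Between zones, the members that differed were higher on the periportal side. Averaged over the 3 feeding states, 5 of the 9 genes passed an adjusted p of 0.05 in the quasi-likelihood test of edgeR (Apoa4, Apoc2, Apoc3, Apoa5 and Apob), all higher in periportal hepatocytes, beside 20.3% of all genes tested in either direction. The median log2 difference of the 9, periportal over pericentral, was 0.39, against 0.0017 over all genes. Apoa4 differed by 2.54 ± 0.41 (log2, SE; adjusted p = 0.00050), Apoc2 by 1.25 ± 0.10 (adjusted p = 1.1e-07), Apoc3 by 0.63 ± 0.10 (adjusted p = 0.00013), Apoa5 by 0.51 ± 0.10 (adjusted p = 0.0019) and Apob by 0.39 ± 0.10 (adjusted p = 0.0096). Mttp (0.23 ± 0.09, adjusted p = 0.088) and Apoa1 (0.15 ± 0.12, adjusted p = 0.46) missed the threshold. So did Apoa2 and Apoe, at -0.06 ± 0.09 and -0.10 ± 0.07. Apoe was thus bounded between -0.24 and 0.05 by its 95% confidence interval, and Apoa2 between -0.24 and 0.12. Leaving out the second pericentral library at 24 h left all 5 called. Mttp joined them without the first periportal library at 8 h (0.27, adjusted p = 0.027), and Apoa1 without the third fed pericentral library (0.27, adjusted p = 0.043).

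State by state, 2 of the 9 genes (Apoa5 and Apoc2) were called between zones in fed mice, where 8.01% of genes were. After 8 h of fasting there were 5 (Apoa4, Apoa5, Apoc2, Apoc3 and Mttp) beside a background of 7.14%, and after 24 h there was 1 (Apoc2) beside 4.17%. All of these calls were higher in periportal cells. The number at 8 h depended on single libraries: it was 2 without the first pericentral library at 8 h, or without the second or the third periportal one, and 3 without the third pericentral one. With only the libraries of that comparison in the fit it was 1. In fed mice it was 1 without the second pericentral library. Whether the zone difference itself changed with fasting was tested as an interaction. None of the 9 genes passed that test in edgeR, from fed to 8 h (0% of all genes called), from fed to 24 h (0.016%) or from 8 h to 24 h (0%). At an unadjusted p of 0.05 the numbers of members were 2, 1 and 1, beside 680, 962 and 746 of all 12477 genes tested. DESeq2 and limma-voom called none of the 9 in these tests either.

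**Figure D1:**
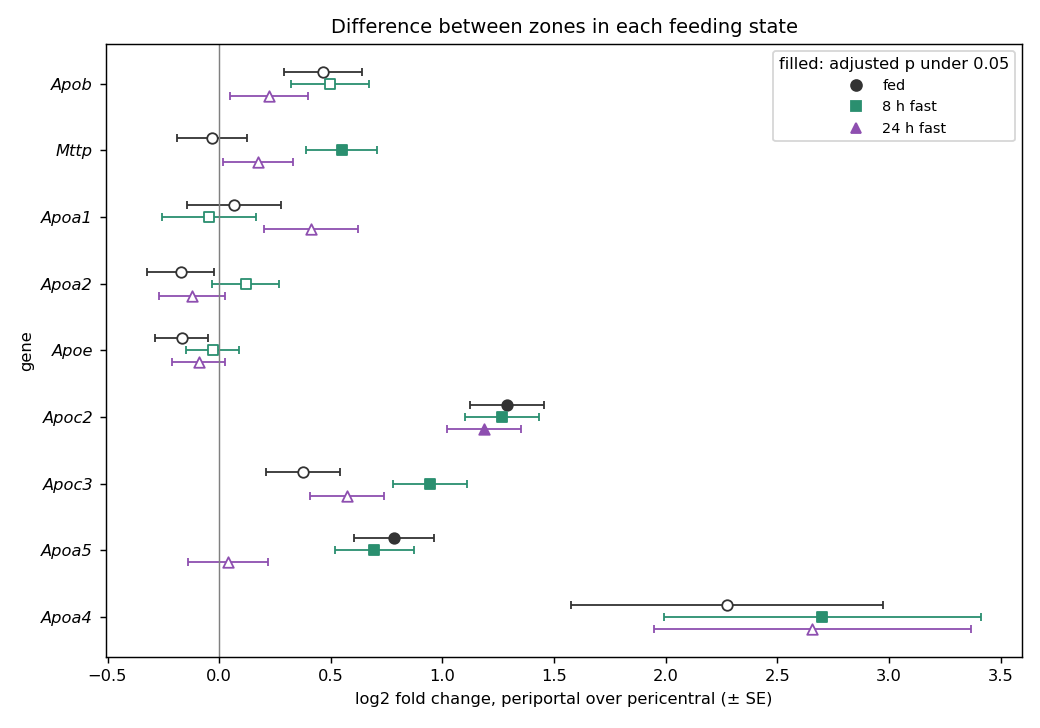
Log2 fold change of each gene, periportal over pericentral (horizontal axis, with SE), in fed mice (circles), after 8 h (squares) and after 24 h (triangles) of fasting, with filled symbols where the edgeR adjusted p was under 0.05. Apoa4 lies farthest to the right with the widest errors, Apoc2 lies between 1.19 and 1.29 in all 3 states, and Apoe and Apoa2 lie near 0.

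The genes of particle assembly come first. Apob (chr12:7977648-8016835, plus strand; gene positions are those of GENCODE on GRCm38) encodes the structural protein of very low density lipoprotein. Its level was 5339, 6603 and 5853 CPM in the fed pericentral libraries and 8287, 6975 and 9286 CPM in the fed periportal ones. After 8 h it was 6060.0, 6687 and 6868 CPM against 7218, 10204 and 10234 CPM, and after 24 h 6688, 8164 and 7576 CPM against 7435, 7843 and 10931 CPM. In fed mice and at 8 h every periportal library lay above every pericentral one, and at 24 h the zones overlapped. No single state passed the test: the log2 difference was 0.46 ± 0.17 fed (adjusted p = 0.13), 0.50 ± 0.17 at 8 h (adjusted p = 0.10) and 0.22 ± 0.17 at 24 h (adjusted p = 0.57). Without the first periportal library at 8 h, the lowest of its group, the 8 h difference was 0.64 (adjusted p = 0.027). None of its fasting changes passed the test, at log2 values from fed of 0.14 at 8 h and 0.33 at 24 h in pericentral cells and of 0.17 and 0.09 in periportal cells (lowest adjusted p = 0.19).

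Mttp (chr3:138089854-138144968, minus strand), whose product loads lipid onto apolipoprotein B, had another pattern. In fed mice its level was 505, 404 and 439 CPM in pericentral and 463, 463 and 392 CPM in periportal libraries, which overlapped. At 8 h it was 297, 462 and 430.2 CPM in pericentral and 461, 645 and 633 CPM in periportal libraries, the last 2 being the highest values of the gene, and the zones overlapped narrowly. At 24 h it was 337, 354 and 363 CPM in pericentral and 379, 384 and 425 CPM in periportal libraries. On this TMM scale every periportal value lay above every pericentral one, while as unscaled shares of counts the zones overlapped. The zone difference was called at 8 h only, at 0.55 ± 0.16 (log2, edgeR adjusted p = 0.044), and not in fed mice (-0.03 ± 0.16) or at 24 h (0.17 ± 0.16, adjusted p = 0.65). From 8 h to 24 h Mttp fell in periportal cells by 0.55 ± 0.16 on the log2 scale (adjusted p = 0.044). No other member was called lower in any of the 13 comparisons. Both calls lay close to the threshold: over 26 alternative settings the 8 h zone call was lost in 17, with adjusted p between 0.0095 and 0.22, and the fall in 12, with adjusted p between 0.011 and 0.15. Of the libraries left out in turn, the zone call was kept without the first fed pericentral, the second pericentral at 8 h or the first periportal at 8 h alone. The fall was lost without any library at 24 h, without the second or the third periportal one at 8 h, and without the first or the second fed periportal or the third fed pericentral one. The 8 h zone difference was 0.37 (adjusted p = 0.18) without the first pericentral library at 8 h, whose 297 CPM was the lowest value of the gene. The difference between zones in the change from fed to 8 h was 0.58 ± 0.22 (edgeR adjusted p = 0.91).

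Among the scaffold proteins of high density lipoprotein, neither gene was called between zones. Apoa1 (chr9:46228580-46230466, plus strand) stood at 3851, 3705 and 7164 CPM in fed pericentral and 5046, 4962 and 5414 CPM in fed periportal libraries. It stood at 6174, 5345 and 5138 CPM against 5295, 5589 and 5275 CPM at 8 h, and at 6539, 6434 and 4821 CPM against 6958, 7197 and 9527 CPM at 24 h. The third fed pericentral library was far above the other fed pericentral ones. At 24 h all 3 periportal libraries lay above all pericentral ones and above the fed and 8 h periportal libraries in CPM. As unscaled shares of counts, the first pericentral library at 24 h lay above the first and the second periportal one. The third periportal library at 24 h, the highest in CPM, had the lowest TMM factor of all (0.830). Apoa1 rose from fed to 24 h in periportal cells by 0.62 ± 0.21 (log2, edgeR adjusted p = 0.049), and its change in pericentral cells was 0.27 ± 0.21 (adjusted p = 0.39). The difference between these changes was 0.35 ± 0.30 (adjusted p = 0.84), so the rise was not shown to differ between zones. The periportal call was lost in 16 of 26 alternative settings, with log2 values of 0.46 to 0.70 and adjusted p up to 0.21. It was kept without any 1 fed pericentral library or the third pericentral one at 24 h, and lost without any other library. Without the third fed pericentral library, the pericentral changes from fed were 0.55 after 8 h and 0.65 after 24 h (adjusted p = 0.046 and 0.015). The periportal change from 8 h to 24 h was then 0.55 (adjusted p = 0.036).

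Apoa2 (chr1:171225054-171226379, plus strand) was called in none of the 13 comparisons. Its lowest library was at 3623 CPM (pericentral, 8 h) and its highest at 6213 CPM (pericentral, 24 h). Group means ran from 4366 ± 190.1 CPM (SD, n = 3) in fed periportal to 5742 ± 590.2 CPM in 24 h pericentral cells. In CPM each group overlapped the next in that order. As unscaled shares of counts, every pericentral library at 24 h lay above every periportal one of that state. In fed mice the 3 pericentral libraries (4595, 4837 and 5328 CPM) lay above the 3 periportal ones (4489, 4462 and 4147 CPM), but the log2 difference of -0.17 ± 0.15 did not pass the test (edgeR adjusted p = 0.57).

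Apoe (chr7:19696109-19699188, minus strand), the ligand for remnant uptake and the most abundant of the 9, was likewise called in none of the 13 comparisons. Its level was 19637, 19924 and 24194 CPM in fed pericentral and 19786, 18131 and 18861 CPM in fed periportal libraries. At 8 h it was 20567, 22540.0 and 22704 CPM against 20457, 21707 and 22313 CPM, and at 24 h 24775, 23763 and 24134 CPM against 21218, 22708 and 24312 CPM. On this TMM scale the zones overlapped in each state. As unscaled shares of a library's counts, every pericentral value lay above every periportal one of the same state. The shares were 2.17%, 2.13% and 2.41% against 1.92%, 1.86% and 1.95% in fed mice. At 8 h they were 2.24%, 2.38% and 2.45% against 2.10%, 1.86% and 1.99%. At 24 h they were 2.59%, 2.45% and 2.47% against 2.07%, 2.15% and 2.02%. From fed to 24 h the log2 change was 0.19 ± 0.12 in pericentral cells (edgeR adjusted p = 0.28) and 0.27 ± 0.12 in periportal cells (adjusted p = 0.13), where all 3 libraries at 24 h lay above all fed ones. By the Wald test of DESeq2 the periportal change was called (0.27, adjusted p = 0.016). Kupffer cells also make Apoe, and the median sum of the markers of Kupffer cells and leukocytes was 3.08 CPM in the fed and 7.57 CPM in the 24 h periportal libraries, and 1.31 and 3.21 CPM in the pericentral ones. Their part in these Apoe values was not tested.

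The regulators of lipolysis in plasma follow. Apoc2 (chr7:19671579-19677941, minus strand), the activator of lipoprotein lipase, stood at 53.6, 52.1 and 75.5 CPM in fed pericentral and 158, 134 and 151 CPM in fed periportal libraries. At 8 h the values were 62.5, 58.1 and 63.5 CPM against 124, 165 and 154 CPM, and at 24 h 77.2, 97.4 and 76.8 CPM against 151, 190.2 and 231 CPM. Every periportal library lay above every pericentral one, also across states. The zone difference was 1.29 ± 0.17 in fed mice (log2, adjusted p = 0.00011), 1.27 ± 0.17 at 8 h (adjusted p = 0.00018) and 1.19 ± 0.17 at 24 h (adjusted p = 0.00053), a 2.27-fold to 2.44-fold higher level. It was the only member called between zones in all 3 states, and it kept these calls in all 26 alternative settings. Without the second pericentral library at 24 h the difference in that state was 1.31 (adjusted p = 0.00057).

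With fasting, Apoc2 rose in pericentral cells from fed to 24 h by 0.47 ± 0.16 (log2, edgeR adjusted p = 0.049), a call that was lost in 18 of 26 alternative settings (log2 0.35 to 0.66, adjusted p up to 0.19). It was kept without the third fed pericentral library, the first periportal one at 8 h, or the first or the third periportal one at 24 h, and lost without any other. The lowest value was that without the second pericentral library at 24 h (0.35, adjusted p = 0.19). In periportal cells the change was 0.37 ± 0.16 (adjusted p = 0.13), and 0.51 (adjusted p = 0.044) without the first periportal library at 24 h. GENCODE annotates a read-through gene, Gm44805, on the same strand across Apoc2 and its neighbour Apoc4, so reads could have been shared between them. Apoc4 itself was not called between zones (-0.16 ± 0.08 averaged over states, adjusted p = 0.20).

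Apoc3 (chr9:46232933-46235636, minus strand), the inhibitor of triglyceride clearance, was also higher in periportal libraries. It stood at 784, 819.9 and 871 CPM against 1012, 1160.3 and 1036 CPM in fed mice, at 648, 837 and 847 CPM against 1065, 1716 and 1704 CPM at 8 h, and at 749, 881 and 906 CPM against 1099, 1382 and 1294 CPM at 24 h. In each state all 3 periportal libraries lay above all 3 pericentral ones. The difference was called at 8 h, at 0.94 ± 0.17 (log2, adjusted p = 0.0019). It missed the threshold in fed mice (0.37 ± 0.17, adjusted p = 0.20) and at 24 h (0.57 ± 0.17, adjusted p = 0.064). At 24 h it was called without the first periportal library at 8 h (0.57, adjusted p = 0.013), a library of another group that enters only through the shared spread, and by the Wald test of DESeq2 (0.58, adjusted p = 0.013). The change in periportal cells from fed to 8 h was 0.48 ± 0.17 (adjusted p = 0.061). It was called by DESeq2 (0.48, adjusted p = 0.026), without the first periportal library at 8 h (0.68, adjusted p = 0.0039) and without the first pericentral one (0.49, adjusted p = 0.049). The corresponding change in pericentral cells was -0.09 ± 0.17.

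Apoa5 (chr9:46268633-46271919, plus strand), which favours triglyceride clearance, had the largest fasting change of the 9. In pericentral libraries it stood at 889.7, 929.8 and 1098 CPM fed, at 847, 1492 and 1406 CPM after 8 h and at 1957, 2369 and 2053 CPM after 24 h. In periportal libraries it stood at 1770.5, 1475 and 1767 CPM, then 1779.5, 2022 and 2262 CPM, then 2309.9, 2303 and 1944 CPM. Every pericentral library at 24 h lay above every pericentral library of the earlier states, while the zones overlapped at 24 h only.

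In pericentral cells Apoa5 rose from fed to 24 h by 1.13 ± 0.18 (log2, edgeR adjusted p = 0.00034), a 2.19-fold change, and from 8 h to 24 h by 0.77 ± 0.18 (adjusted p = 0.013). Without the second pericentral library at 24 h these changes were 1.04 (adjusted p = 0.0020) and 0.68 (adjusted p = 0.054). Its 8 h change of 0.36 ± 0.18 missed the threshold (adjusted p = 0.21), but was 0.58 (adjusted p = 0.016) without the first pericentral library at 8 h. In periportal cells the 24 h change was 0.39 ± 0.18 (adjusted p = 0.14), and was called by a narrow margin without that same library (0.38, adjusted p = 0.049). The zone difference was 0.78 ± 0.18 fed (adjusted p = 0.011), 0.70 ± 0.18 at 8 h (adjusted p = 0.024) and 0.04 ± 0.18 at 24 h (adjusted p = 0.94). Without the second pericentral library at 24 h the last value was 0.12 (adjusted p = 0.83). The change from fed to 24 h differed between zones by -0.74 ± 0.25 (periportal minus pericentral), but this interaction did not pass adjustment over all genes (adjusted p = 0.49), so a loss of the zone difference was not shown. The fed zone call fell just outside the threshold without the first (0.72, adjusted p = 0.051) or the second (0.74, adjusted p = 0.050) fed pericentral library. The 8 h call was lost without the first pericentral library at 8 h (0.47, adjusted p = 0.078) and without the second (0.70, adjusted p = 0.067) or the third (0.61, adjusted p = 0.11) periportal one.

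Apoa4 (chr9:46240696-46243459, plus strand) had the largest zone difference of the 9 and the largest spread between replicates. Its level was 349.5, 103 and 148 CPM in fed pericentral and 1633, 514 and 755 CPM in fed periportal libraries. It was 129, 132 and 244 CPM against 302, 1329.5 and 1648 CPM at 8 h, and 106, 164 and 241 CPM against 460.4, 1127 and 1634 CPM at 24 h. The zones did not overlap in any state, although the first periportal library at 8 h, at 302 CPM, lay below the highest fed pericentral one. That library also had the lowest Alb (93000 CPM, where periportal libraries reached 159562 CPM) of the periportal libraries and the lowest Sds (222 CPM) of its group. The log2 difference was 2.27 ± 0.70 in fed mice (adjusted p = 0.066), 2.70 ± 0.71 at 8 h (adjusted p = 0.035) and 2.66 ± 0.71 at 24 h (adjusted p = 0.054), or 4.83-fold, 6.50-fold and 6.31-fold.

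Within single states the Apoa4 calls turned on the libraries in the fit and on the settings. Its 8 h difference was 3.14 (adjusted p = 0.011) without the first periportal library at 8 h, while the call was lost when any 1 of the other 5 libraries of that state was left out (log2 2.28 to 3.06, adjusted p = 0.061 to 0.13). In fed mice it was called without the first fed pericentral library (2.94, adjusted p = 0.048) and without the first periportal library at 8 h (2.27, adjusted p = 0.036). At 24 h it was called without the first library of the fed pericentral (adjusted p = 0.046), fed periportal (adjusted p = 0.0495), 8 h periportal (adjusted p = 0.027) or 24 h periportal group (3.02, adjusted p = 0.036). Fasting changes were between -0.25 ± 0.67 and 0.18 ± 0.67 from fed in either zone, with confidence intervals from -1.69 to 1.61 on the log2 scale that leave changes of either sign undetectable at this spread. With all libraries kept, the Wald test of DESeq2 called it in fed mice (2.27, adjusted p = 0.0079). The 24 h difference was called by that test too (2.66, adjusted p = 0.0016), and with a filter at a mean of 1 CPM (2.67, adjusted p = 0.049). The 8 h call was lost with no filter beyond 1 count (2.70, adjusted p = 0.074) and with only the groups compared (2.71, adjusted p = 0.10). GENCODE annotates genes on the opposite strand over Apoa4 (Gm47528 and Gm10680), Apoa5 (Gm47544) and Mttp (Gm43691 and Trmt10a), and the use of strand in the counting is not given in the sources used here. Trmt10a was counted at 3.13 to 5.55 CPM, and the others were not analysed here.

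**Figure D2:**
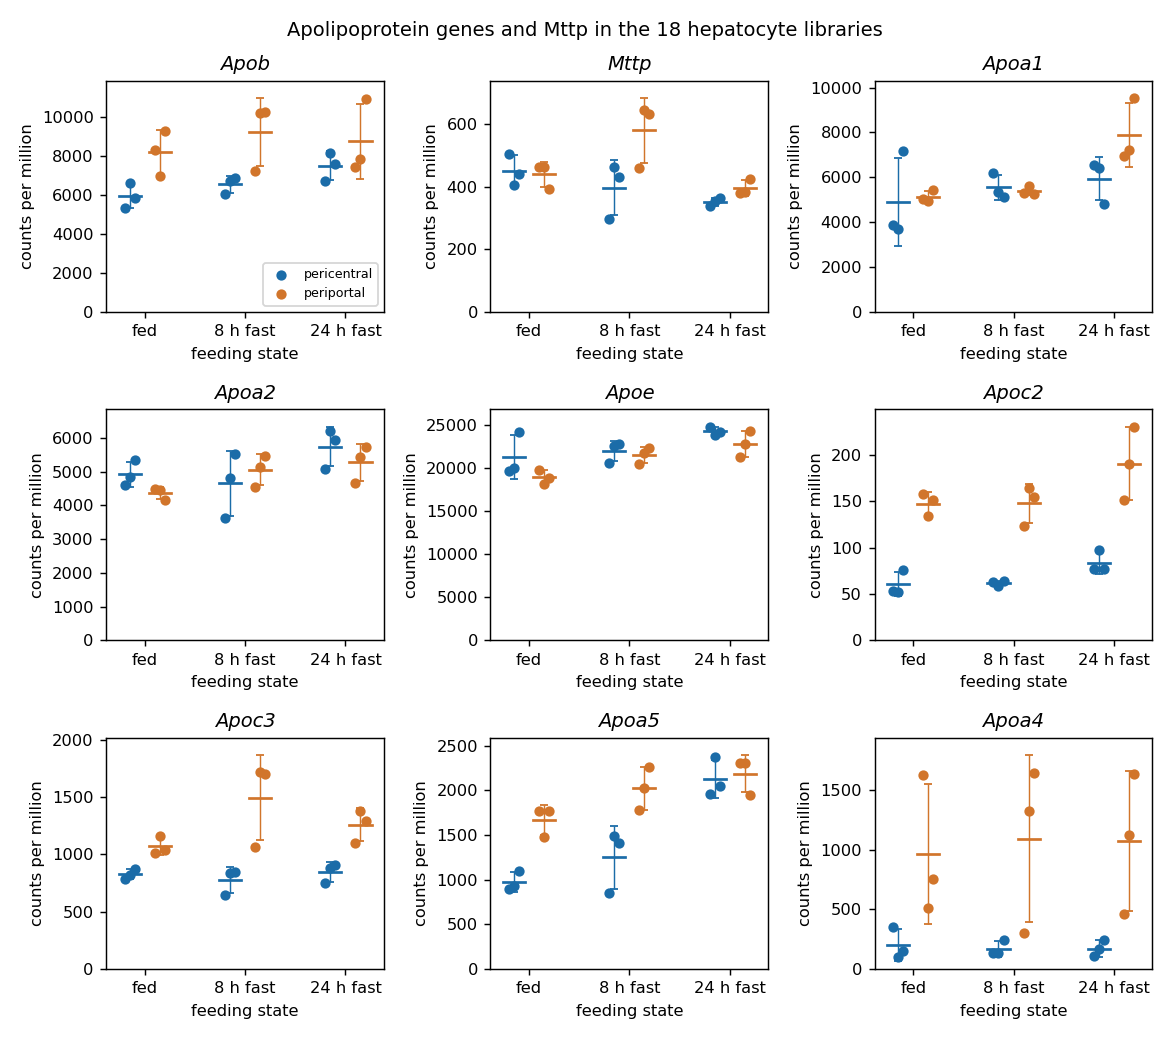
Level of each of the 9 genes in CPM (vertical axis, from 0, on a scale of its own for each gene) in every library, by feeding state and zone, with group means and SD (n = 3) as bars. Apoc2 shows every periportal point above every pericentral point, Apoa5 shows pericentral points at 1957 CPM or more at 24 h, and Apoe and Apoa2 show overlapping zones at 8 h and 24 h.

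The clusters put genes with unlike zone patterns side by side. On chromosome 9 the zone difference averaged over states was 0.15 for Apoa1, 0.63 for Apoc3, 2.54 for Apoa4 and 0.51 for Apoa5 (log2), and on chromosome 7 it was 1.25 for Apoc2, -0.16 for Apoc4, -0.07 for Apoc1 and -0.10 for Apoe. Ratios of gene pairs within a library, where depth and scaling cancel, describe the same contrasts. The pairs were chosen after these values had been seen, so they are given with no test. The log2 ratio of Apoc2 to Apoe was 1.34 higher in periportal than in pericentral libraries, and that of Apoa4 to Apoa1 2.26 higher, both without overlap in any of the 3 states. The ratio of Apoc2 to Apoc3, the activator to the inhibitor, was 0.62 higher, without overlap in 2 of the 3 states. Those of Apoc3 to Apoa1 (0.45), Apoa5 to Apoa1 (0.35) and Apob to Mttp (0.15) differed less.

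**Figure D3:**
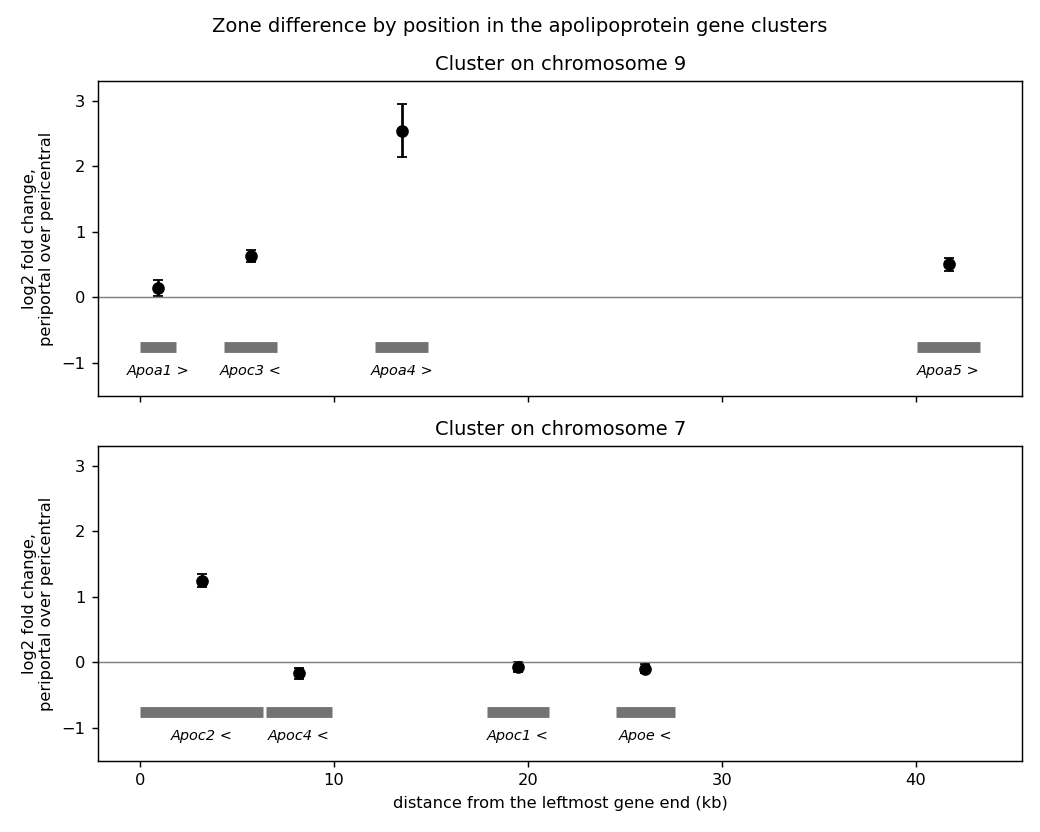
Zone difference averaged over the feeding states (vertical axis, log2 periportal over pericentral, with SE) for the genes of the chromosome 9 and chromosome 7 clusters, placed by distance from the leftmost gene end in kb. Grey bars are the annotated genes and the sign after each name gives the strand. Apoa4 (2.54) and Apoc2 (1.25) stand above their neighbours, and Apoc4, Apoc1 and Apoe lie near 0.

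Read against the share of all genes called, given in brackets, the counts of members called with fasting say nothing particular about the 9. In pericentral cells 0 of 9 were called from fed to 8 h by edgeR (13.8% of all genes). None had an unadjusted p under 0.05, where 3327 of the 12477 genes tested did. DESeq2 and limma-voom also called 0. From fed to 24 h 2 were called, Apoa5 and Apoc2, both higher (21.8% of all genes), and from 8 h to 24 h 1 was, Apoa5 (9.71%). In periportal cells 0 were called from fed to 8 h by edgeR (14.4%), while DESeq2 called 1 (Apoc3) and limma-voom 0. By edgeR 2 members had an unadjusted p under 0.05 there, where 3439 of the 12477 genes did. From fed to 24 h 1 was called, Apoa1, which rose (19.6%), and from 8 h to 24 h 1, Mttp, which fell (7.46%). The 8 h and the 24 h changes share the fed libraries. Median log2 changes of the 9 from fed to 24 h were 0.22 in pericentral and 0.27 in periportal cells, against 0.0090 and -0.0016 over all genes.

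**Figure D4:**
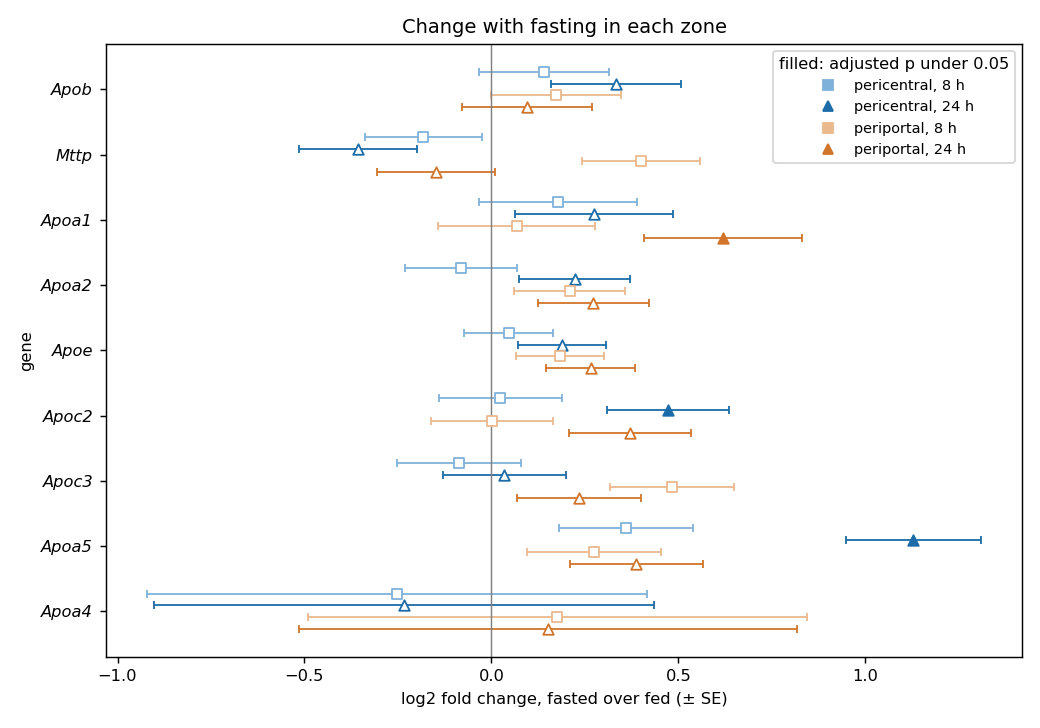
Log2 change from fed (horizontal axis, with SE) after 8 h (squares) and 24 h (triangles) of fasting in pericentral (blue) and periportal (orange) hepatocytes, with filled symbols where the edgeR adjusted p was under 0.05. Apoa5 at 24 h in pericentral cells (1.13) lies farthest from 0, and the 8 h and 24 h values share the fed libraries.

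Other lipoprotein genes were read from 5 lists. Their median zone differences averaged over states were -0.16 (log2) for other particle proteins, 0.06 for assembly and export, 0.10 for lipid transfer, 0.10 for receptors and 0.05 for transcription factors, against 0.0017 over all genes tested. Counts of calls in these lists stand beside the shares of all genes called in the same comparison, which were 20.3% for zones averaged over states, 8.01% for zones fed, 7.14% at 8 h and 4.17% at 24 h. From 8 h to 24 h (9.71% of all genes in pericentral and 7.46% in periportal cells) the calls in pericentral cells were, in the same order of lists, 0, 2, 2, 0 and 4 higher and 0, 1, 1, 0 and 0 lower. In periportal cells they were 0, 1, 0, 0 and 2 higher and 0, 2, 0, 0 and 0 lower. Of the other particle proteins, 9 of 10 were tested. Averaged over states, 1 was called higher and 1 lower in periportal cells: Apof, of the inhibitor of cholesteryl ester transfer, at 0.42 ± 0.10 (log2, edgeR adjusted p = 0.0047), and Pon1, the paraoxonase carried on high density lipoprotein, at -1.37 ± 0.10 (adjusted p = 8.3e-08). Pon1 stood at 1003 ± 129 CPM in fed pericentral and 349 ± 77.3 CPM in fed periportal cells (SD, n = 3), opposite in direction to Apoa4 and Apoc2. It was called lower in each of the 3 states, as the list's 1 call in each. None of the 9 was called from fed to 8 h or to 24 h in either zone. For Saa1 and Saa2 this does not show steady levels, since replicates differed widely. Saa1 ran from 12.9 to 2096 CPM in fed and from 11.8 to 3234 CPM in 8 h pericentral libraries. In 24 h periportal ones it ran from 12.5 to 1611 CPM. Saa2 ran from 3.67 to 2311 CPM in 8 h pericentral libraries.

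All 14 genes of assembly and export were tested. Averaged over states 4 were called higher in periportal cells: Tm6sf2, which promotes the lipidation of very low density lipoprotein (0.62 ± 0.10, log2, adjusted p = 0.00023), Ergic1, a protein of the compartment between endoplasmic reticulum and Golgi (0.30 ± 0.07, adjusted p = 0.0038), P4hb, the partner subunit of the microsomal transfer protein (0.25 ± 0.08, adjusted p = 0.030), and Canx, a chaperone (0.19 ± 0.06, adjusted p = 0.027). The calls of P4hb and Canx were each lost in 10 of 26 alternative settings (adjusted p up to 0.071 and 0.067), that of P4hb also without the second pericentral library at 24 h (0.24, adjusted p = 0.054). Sort1, a sorting receptor that binds apolipoprotein B, was lower, at -1.43 ± 0.17 (adjusted p = 1.6e-05), and so was Mia3, an export receptor for large cargo, at -0.25 ± 0.05 (adjusted p = 0.0018). State by state the list had 0 higher and 2 lower calls in fed mice, 2 and 1 at 8 h, and 0 and 2 at 24 h. From fed to 8 h it had 0 higher and 1 lower call in each zone, beside 13.8% of all genes in pericentral and 14.4% in periportal cells. From fed to 24 h, 2 were called higher and 5 lower in pericentral (21.8% of all genes) and 2 and 2 in periportal cells (19.6%). Mia2 and Mia3 were those higher, at 0.47 and 0.40 in pericentral and 0.40 and 0.48 in periportal cells. The Mia2 call was lost in pericentral cells without the second library at 24 h (0.39, adjusted p = 0.065) or the first fed one, and in periportal cells in 6 of 26 settings (adjusted p up to 0.14). Ergic1 (-0.71 and -0.56) and Canx (-0.57 and -0.64) were called lower in both zones, and Surf4, the cargo receptor of lipoproteins, was called lower in pericentral cells (-0.54). Apobec1, the enzyme that edits Apob mRNA, was called lower at 8 h in periportal cells (-0.73 ± 0.22, adjusted p = 0.031). That call was lost without the first or the second fed periportal library and without the second or the third periportal one at 8 h (adjusted p up to 0.14 over all settings).

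The 8 genes of lipid transfer and remodelling in plasma reported here were all tested. Averaged over states Gpihbp1, which anchors lipoprotein lipase to endothelium, was called higher in periportal libraries (2.70 ± 0.70, adjusted p = 0.011), at group means of 0.541 to 0.639 CPM there and 0.0394 to 0.142 CPM in pericentral ones. The endothelial markers were also at a few CPM, and their part in its difference was not tested. The call was lost without the third periportal library at 8 h (1.67, adjusted p = 0.095), which held the highest level of the gene (1.63 CPM) and the highest endothelial sum (25.8 CPM), and in limma-voom (2.05, adjusted p = 0.062). Pltp, the phospholipid transfer protein (-2.32 ± 0.31, adjusted p = 8.4e-05), and Lpl, lipoprotein lipase (-2.28 ± 0.32, adjusted p = 6.8e-05), were lower in periportal libraries. Lpl was at low levels, with group means of 0.643 to 0.752 CPM in periportal libraries. In pericentral ones its means were 2.01 CPM fed, 8.86 CPM at 8 h and 2.34 CPM at 24 h. The part of other cells in its difference was not tested. State by state the list had 0 higher and 2 lower calls fed, 0 and 1 at 8 h, and 0 and 1 at 24 h. Among secreted regulators of lipase, Angptl4 and Angptl8 changed with fasting in both zones. Angptl4, an inhibitor of lipoprotein lipase, rose from 28.2 ± 3.85 to 226 ± 88.8 CPM (SD, n = 3) at 24 h in pericentral cells and from 13.9 ± 2.89 to 299 ± 57.4 CPM in periportal cells, log2 changes of 3.00 and 4.43, and had already risen by 2.74 and 4.27 at 8 h. Angptl8, which acts on lipase in the fed state, fell, with log2 changes of -4.73 and -4.44 at 24 h and of -3.90 and -3.17 at 8 h. Counts for the list from fed to 8 h were 2 higher and 2 lower in pericentral and 1 and 1 in periportal cells, and from fed to 24 h 2 and 1 in each zone. At 8 h in pericentral libraries Lpl rose by 2.14, from 2.01 ± 0.33 to 8.86 ± 3.73 CPM (SD, n = 3). Lipg, endothelial lipase, fell there (-1.71, lost in 4 of 26 settings). Lcat, which esterifies cholesterol on high density lipoprotein, rose at 24 h (0.56 pericentral, 0.45 periportal).

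The 6 genes of liver receptors, their partners and efflux proteins reported here were all tested. Sdc1, a heparan sulfate proteoglycan that binds remnants (0.68 ± 0.09, log2, adjusted p = 5.0e-05), and Scarb1, the receptor for high density lipoprotein (0.22 ± 0.06, adjusted p = 0.014), were higher in periportal cells averaged over states, and Vldlr (-1.68 ± 0.30, adjusted p = 0.00070; group means 0.546 to 2.52 CPM) was lower. In single states the calls were 1 higher fed, 2 higher at 8 h and 0 at 24 h, with 0 lower. Between fed and 24 h Abca1, the exporter that lipidates apolipoprotein A-I, fell (-0.62 pericentral, -1.11 periportal) and Scarb1 rose (0.36 and 0.49), which makes 1 higher and 1 lower in each zone. At 8 h the calls were again 1 higher, Scarb1 (0.39 and 0.73), and 1 lower, Abca1 (-0.73 and -0.96), in each zone. The pericentral calls of Scarb1 were lost in 5 of 26 settings at 8 h and in 3 at 24 h (adjusted p up to 0.089 and 0.092).

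All 15 transcription factors listed for these genes were tested. Averaged over states Nr0b2 (1.35 ± 0.27, adjusted p = 0.0023), Ppargc1a (0.99 ± 0.14, adjusted p = 6.0e-05), Rora (0.30 ± 0.07, adjusted p = 0.0048) and Creb3l3, an activator of Apoa4 and other apolipoprotein genes (0.29 ± 0.07, adjusted p = 0.0062), were higher in periportal cells, and Ppara was lower (-0.28 ± 0.09, adjusted p = 0.026). Without the second pericentral library at 24 h the Ppara call was lost (-0.26, adjusted p = 0.051), as it was in 4 other settings. In single states the calls were 1 higher fed, 0 at 8 h and 1 higher at 24 h. With fasting to 24 h, 7 were called higher and 2 lower in pericentral (21.8% of all genes) and 5 and 2 in periportal cells (19.6%). At 8 h 1 was called higher and 1 lower in each zone (13.8% and 14.4%). Srebf1, the lipogenic regulator, fell, with log2 changes of -3.09 and -3.85 at 24 h and of -3.06 and -3.78 at 8 h. Ppargc1a rose by 1.68 in each zone at 24 h, Foxo1 by 1.27 and 1.37, Ppara by 0.96 and 0.84, and Foxa2 fell (-0.97 and -1.27). The pericentral call of Foxa2 was lost in 6 of 26 settings, among them that without the second pericentral library at 24 h (-1.05, adjusted p = 0.060). Hnf4a, a central activator of apolipoprotein genes, rose by 0.55 and 0.57, the first lost without the third pericentral library at 24 h (adjusted p = 0.051). Its zone difference was called in no state and not in their average.

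For the 7 members called in at least 1 comparison, the nearest patterns over the 6 group means were sought among 6613 genes of at least 10 CPM, by the root mean square difference of centred log2 levels. The 3 nearest to Apoc2 were Rida (0.10), Alb (0.10) and Ftcd (0.12), and those nearest to Apoc3 were Cfhr2 (0.048), Pglyrp2 (0.068) and C8g (0.075). Nearest to Apoa5 were Plbd2 (0.094), Arsa (0.095) and Man2a1 (0.12), and nearest to Apob were Cdhr5 (0.029), Degs1 (0.038) and Itpr2 (0.043). Nearest to Apoa1 were Lipe (0.060), the pseudogene Tpt1-ps3 (0.063) and Pfkfb2 (0.075), and nearest to Mttp were Nfxl1 (0.063), Med23 (0.069) and C1rl (0.071). For Apoa4 the distances were larger, at 0.31 for Mup20, 0.36 for Zfp750 and 0.37 for Ugt1a9, while its own deviation from its mean was 1.22 by the same measure, against 0.65 for Apoc2. Counts of Mup20, Ugt1a9 and Tpt1-ps3, which have near-identical copies or shared exons, are uncertain. These likenesses rest on 6 means and describe levels alone.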

How the data were processed

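RNA of isolated hepatocytes (RNeasy with TRIzol) went into NEBNext Ultra libraries, per the labels. The authors deposited a table of estimated counts per gene, a column for each library. The submitters' processing notes name kallisto 0.46.0 and mm10. Their roles, the annotation and the use of strand are not given in the sources used here. The values were estimated, so only 67.5% to 70.5% were whole (tolerance 1e-09), and were rounded to whole numbers first.

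All 18 libraries, 6 groups, were fitted together with edgeR 4.0.16 in R 4.3.3 (TMM, filterByExpr, robust quasi-likelihood F test, no covariates), and p-values were adjusted by Benjamini and Hochberg over all 12477 genes tested, which held at least 99.95% of each library's counts. Calls used an adjusted p of 0.05, and CPM used TMM library sizes. The fit was tested on simulated counts. Symbols came from a table of gene names, positions and transcript lengths from GENCODE for GRCm38, and promoters from RefSeq. The 9 genes were named in every comparison. From the 5 lists, the genes called between zones averaged over states and up to 3 per direction called with fasting were named, and Apoc1, Apoc4, Surf4 and Hnf4a after their values were seen. Members and lists were chosen with earlier results of these data known. Some listed genes are not reported here and were left out of the counts and medians of their lists. With 3 libraries a group, precision is limited by their number.

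Alternatives were DESeq2 1.42.0 (size factors, Wald test), limma-voom (limma 3.58.1), a mean of 1 CPM or 1 count in all as the filter, scaling without the 20 most abundant genes, only the groups compared, the replicate number as a block, and each library left out in turn. Within groups no library was a copy of another (chi-square per gene 35.9 to 122 over 18 pairs of replicates).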

Additional observations from a re-analysis of the deposited data

How the results depend on the processing

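Zone differences averaged over the feeding states kept 5 or 6 called members under all 26 alternatives, and the 3 interactions kept 0. Of 3042 recomputed member values 2855 kept their direction and side of the threshold, 79 lost a call, 29 gained one and 79 changed sign with no call on either side; no called value changed sign. With only the groups compared, the calls fell to 1 for zones at 8 h, 1 for 24 h against fed in pericentral cells, and 0 for 24 h against 8 h in each zone. Without a filter they were 1 for 24 h against fed in pericentral and 0 in periportal cells, and DESeq2 size factors and scaling without the 20 most abundant genes each gave 1 in pericentral cells, without Apoc2. The Wald test of DESeq2 gave 3 for zones at 24 h, 1 for 8 h against fed and 2 for 24 h against fed in periportal cells. A mean of 1 CPM gave 2 for zones at 24 h. The cause was not tested, except that fits on fewer groups hold fewer samples. Leaving out each library gave 1 to 3 calls for zones in fed mice, 2 to 6 at 8 h and 1 to 3 at 24 h. In pericentral cells it gave 0 to 1 at 8 h and 1 to 3 at 24 h against fed and 0 to 1 between them, and in periportal cells 0 to 2, 0 to 1 and 0 to 1. With 2 libraries left in a group, the spread comes from all groups.

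Deviations of same-numbered libraries of different groups correlated at -0.12 to 0.21 (45 pairs, median 0.032, 7 over 0.1) and those of other-numbered ones at -0.17 to 0.14 (90 pairs, median -0.021, 3 over 0.1). Not every pair passed 0.1, so the numbers were not taken to pair libraries. The 9 same-numbered pairs that join the zones of a single feeding state correlated at -0.011 to 0.17 (median 0.031, 3 over 0.1). The other same-numbered pairs join different feeding states and cannot come from the same liver. A rule over all pairs thus cannot decide whether zones were paired. As a hint from the data and not the design, 14 of 18 libraries had their highest mean correlation with their own number. The number that would arise without pairing was not worked out. With the replicate block the calls were 2 for zones at 24 h (Apoc3 added, 0.57, adjusted p = 0.012), 1 for 8 h against fed (Apoc3, 0.46, adjusted p = 0.018) and 0 for 24 h against fed in periportal cells; the other 10 counts kept within 1.5 times.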
